A study of Sus scrofa with 4 samples.

Results

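SR proteins and heterogeneous nuclear ribonucleoproteins (hnRNPs) are the 2 large classes of RNA-binding proteins that set which exons are kept in an mRNA. The genes described here are those named SRSF followed by a number, HNRNP, TRA2A or TRA2B, PTBP1 to PTBP3, RBFOX1 to RBFOX3, MBNL1 to MBNL3 and CELF1 to CELF6. The rule used names alone, but it was chosen with earlier results of these data known. In the tables, 48 of the 26921 genes and loci carried such a name. The 48 comprised 11 SRSF, 2 TRA2, 20 HNRNP, 3 PTBP, 3 RBFOX, 3 MBNL and 6 CELF genes. RNA was sequenced from pig testis cells in culture, labelled as immature spermatogonia, in 2 control libraries of genotype WT and 2 libraries of cells with ZBTB16 knockdown. ZBTB16, a transcription factor with a BTB domain and zinc fingers, marks spermatogonia that have not begun to differentiate. The series' design plans a short hairpin RNA delivered to primary cells by lentivirus. The sources used here do not give the age of the pigs, the time after transduction or whether the controls received a vector. Knockdown and virus therefore cannot be told apart.

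SR proteins bind exonic enhancers through RNA recognition motifs and recruit the splicing machinery through a domain rich in arginine and serine, which is phosphorylated by dedicated kinases. Many hnRNPs bind silencer sequences and act against exon inclusion, and several package, export or stabilise mRNA. PTBP, RBFOX, MBNL and CELF proteins are position-dependent regulators, whose effect on an exon depends on whether they bind upstream or downstream of it. Many of these genes control their own level: an alternative exon with an early stop codon sends part of the transcripts to nonsense-mediated decay. In the testis, hnRNPs and PTBP proteins are known to take part in the splicing programmes of germ cells.

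The libraries held 15983390 to 18500447 expected counts, the read counts that the RSEM program assigns to a gene. Replicates of a group differed little more than sampling predicts, by 1.15 times in the controls and 1.26 times in the knockdown (chi-square per degree of freedom), against 25.1 to 27.1 times between the groups. The labels speak of 2 independent experiments, but no p-value here reaches beyond the spread of these libraries, which may be technical. With 2 against 2, the smallest p of an exact permutation test is 0.333 (two-sided), so the tests rest on a spread pooled over all genes. The median fragment length was 325.7 and 326.7 bases in the controls and 266.4 and 267.3 bases in the knockdown, a difference that moved with the group. FPKM are fragment counts scaled by library size and effective length, which is about the transcript length less the fragment length. The difference in fragment length between the groups therefore enters FPKM. ZBTB16 itself (chromosome 9, 41639536 to 41839254, plus strand) was at 1.77 and 1.76 FPKM in the controls and 1.37 and 1.34 FPKM in the knockdown. Its log2 change was -0.36 (SE 0.109, adjusted p = 0.00338, edgeR), and adjusted p = 0.0858 with DESeq2.

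The labelled cell type was weakly marked. Summed over 12 markers of undifferentiated spermatogonia, levels were 178, 175, 149 and 148 FPKM (control replicates 1 and 2, then knockdown replicates 1 and 2), with 5 of 12 at 1 FPKM or more, and of 10 tested 2 were called higher (SALL4 and FOXO1) and 2 lower (ZBTB16 and UCHL1). UCHL1 alone was at 122, 120.4, 89.1 and 85.3 FPKM and carried the lower sum. Summed over 8 germ line markers, they were 22.9, 23.1, 20.3 and 19.2 FPKM, with 3 called higher (DAZL, PIWIL2 and TEX15) and 1 lower (DND1, from 6.77 and 6.84 to 3.14 and 2.14 FPKM). In contrast, 8 Sertoli cell markers summed to 771, 758, 933 and 961 FPKM, with 5 called higher and 2 lower (AMH and DHH). CLDN11 alone was at 587, 571, 691 and 721 FPKM and held most of that sum. The 5 markers of peritubular smooth muscle cells summed to 5390, 5300, 5230 and 5130 FPKM, with 4 called higher and 1 lower (TAGLN). The 5 Leydig cell markers present summed to 197, 194, 161 and 172 FPKM. Of 4 tested, 0 were called higher and 1 lower (INSL3). CYP11A1 alone was at 161.7, 157.8, 144.2 and 150.5 FPKM. Apart from the Leydig list, the marker levels moved with the group in both directions within each of these lists. The part of the marker levels in the results below was not tested. In such bulk libraries fewer cells of a type and less RNA per cell cannot be told apart.

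Of the 48 genes, 45 passed the filter on low counts and were tested. The genes RBFOX1, CELF5 and CELF6 did not pass it. With edgeR's quasi-likelihood test on counts, 24 of the 45 fell, 9 rose and 12 did not pass. The threshold was 0.05 on p-values adjusted by Benjamini and Hochberg's method. Over all 15763 genes tested, 23.8% were called lower, 22.7% higher and 46.4% either way. The members called lower were 53.3% of those tested and the members called higher 20.0%, so the excess over the background was on the lower side. Members with many counts were called at small changes, such as HNRNPH1 (-0.05, with 12256 counts in control replicate 1). The background was not matched for counts. The median log2 fold change of the tested members, knockdown over control, was -0.09, against about 0 for all genes. Changes were small: the largest fall was to 0.729 times the control (HNRNPA0) and the largest rise to 1.47 times (MBNL2). In FPKM, the knockdown libraries lay below both controls for 28 members and above both for 11, together 39 of 45, against 70.4% of all genes tested. That background share was not split by direction. FPKM ran lower in the knockdown over all genes too: limma on log2(FPKM + 1) called 29.7% of them lower and 15.6% higher. The direction differed by family. All 3 MBNL genes rose, 2 of 3 PTBP and 2 of 4 tested CELF genes rose, while 16 of 20 HNRNP and 6 of 11 SRSF genes fell. The share of all counts held by the 48 genes was 1.34% and 1.35% in the controls and 1.23% and 1.24% in the knockdown.

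TPM, which scales each library to the same sum, gave another split. Summed FPKM over all genes was 739800 and 742400 in the controls and 635000 and 632900 in the knockdown, so on the scale of log2(TPM + 1) the median change of all genes was 0.146. On that scale 7 members were called lower and 19 higher by limma (14.5% and 41.7% over all genes). The medians of all members (0.09), SRSF (0.08) and TRA2 (0.10) turned positive and that of HNRNP came to 0.00042, all below the median of all genes. The MBNL, PTBP and CELF medians were 0.63, 0.46 and 0.41, all above it. Directions given below are those of the counts unless another scale is named.

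**Figure D1:**
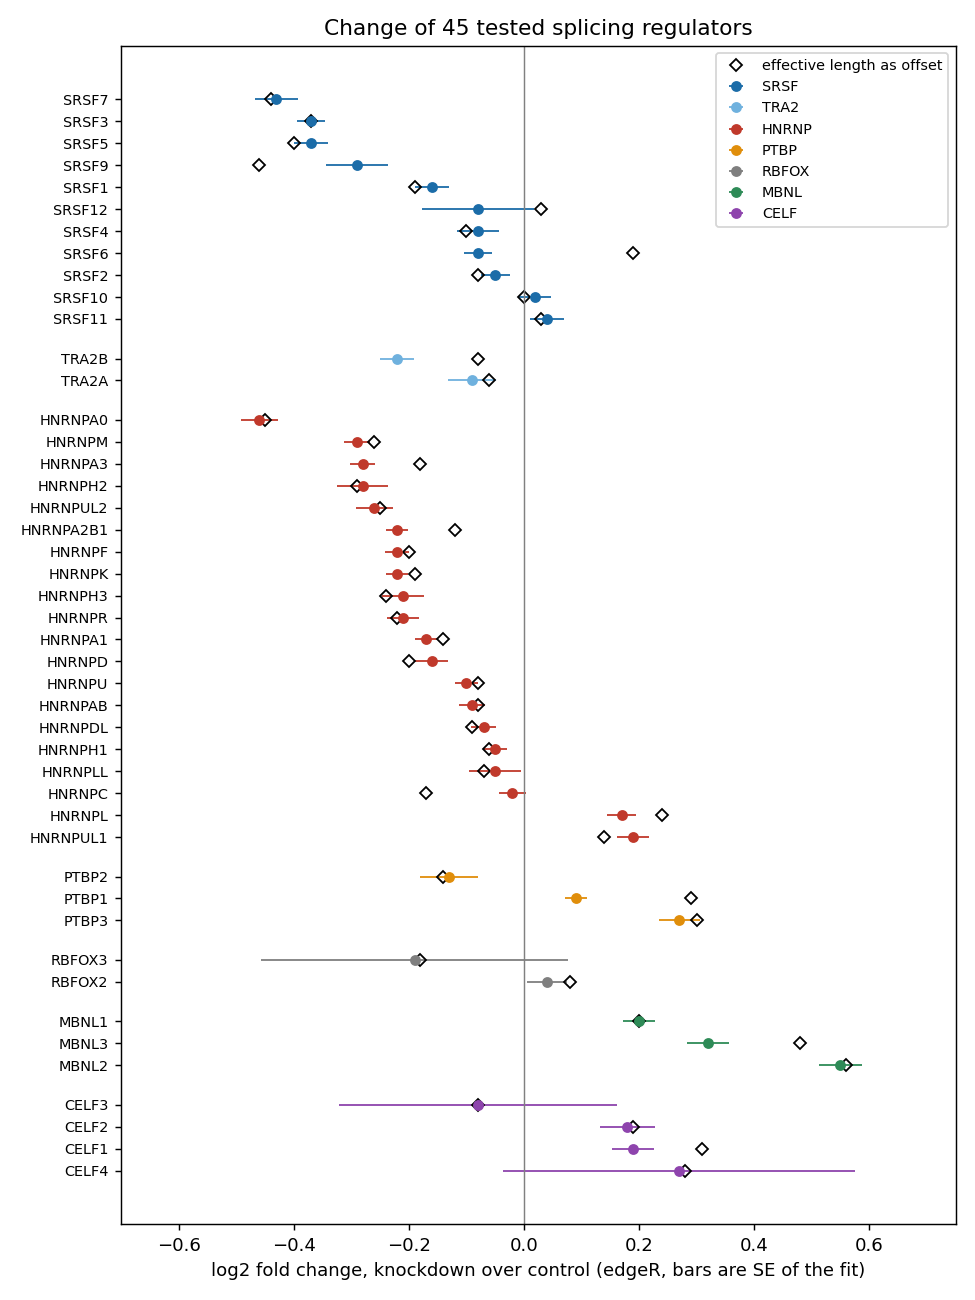
Log2 fold change, knockdown over control, of the 45 tested members by family, with the standard error of the edgeR fit as bars (coloured points) and the fit with effective transcript length as an offset (open diamonds). Most HNRNP and SRSF points lie left of 0 and all 3 MBNL points lie right of it. For SRSF6 the diamond (0.19) lies across 0 from the point (-0.08), and for HNRNPC it lies at -0.17 where the point lies at -0.02.

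Among the classical SR proteins, SRSF7, SRSF3 and SRSF5 fell most. SRSF7, a zinc knuckle SR protein that also acts in mRNA export and polyadenylation, was at 90.7 and 91.7 FPKM in the controls and 63.6 and 66.3 FPKM in the knockdown. The knockdown libraries lay well below both controls, and the log2 change was -0.43 (SE 0.0367, adjusted p = 7.32e-22, edgeR). SRSF3, the smallest SR protein, acting in splicing and export, was at 117 and 120 FPKM against 88.4 and 88.2 FPKM. These groups did not overlap either, with a log2 change of -0.37 (SE 0.0246, adjusted p = 8.1e-31, edgeR). SRSF5, an SR protein with 2 RNA recognition motifs, was at 181 and 183 FPKM in the controls and 135 and 131 FPKM in the knockdown. Both knockdown libraries were lower, with a log2 change of -0.37 (SE 0.0296, adjusted p = 2.29e-24, edgeR), and -0.21 with the trend of fold change on transcript length removed. SRSF7 lies on chromosome 3 (101599429 to 101608786, plus strand), SRSF3 on chromosome 7 (32289464 to 32298652, plus strand) and SRSF5 on chromosome 7 (93393379 to 93398510, plus strand), in Sscrofa 11.1.

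SRSF1, the founding SR protein, was at 92.4 FPKM in both controls and at 77.6 and 78.7 FPKM in the knockdown. The fall was small but larger than the spread, at -0.16 on the log2 scale (SE 0.0296, adjusted p = 9.52e-07, edgeR). SRSF9, a shorter relative of SRSF1 with a brief arginine-serine domain, was at 133 and 152 FPKM in the controls and 99.01 and 99.97 FPKM in the knockdown. The controls differed more from each other than for most members, and the log2 change was -0.29 (SE 0.0547, adjusted p = 2.67e-06, edgeR). Its transcript of 707 bases was the shortest among the tested members. With the trend of fold change on transcript length removed, its log2 change was 0.07 (adjusted p = 0.325), and with the effective length offset -0.46. It was -0.39 without control replicate 1 and -0.19 without control replicate 2.

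SRSF6, an SR protein with 2 RNA recognition motifs and the most abundant SRSF gene per length, gave opposite signs on different scales. Its FPKM was 218 and 224 in the controls and 246 and 241 in the knockdown, so both knockdown libraries were above the controls. By counts its log2 change was -0.08 (SE 0.0241, adjusted p = 0.00488, edgeR), a call that was lost without control replicate 2 (adjusted p = 0.181) and with DESeq2 (adjusted p = 0.0597). With the effective length of the gene in each library as an offset, it was 0.19 (adjusted p = 2.12e-07), and with the length trend removed 0.07 (adjusted p = 0.0187). The deposited length of SRSF6 transcripts, an average weighted by abundance, was 2006 and 2016 bases in the controls and 1688 and 1702 bases in the knockdown. The direction of SRSF6 thus differed between the fits.

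SRSF2, which binds exonic enhancers through a single recognition motif, was at 181 and 184 FPKM in the controls and 167 FPKM in both knockdown libraries. By counts its log2 change was -0.05 (adjusted p = 0.139, edgeR), with the effective length offset -0.08 (adjusted p = 0.0162) and with the length trend removed 0.06 (adjusted p = 0.0311). SRSF4, a large SR protein with a long arginine-serine domain, was at 49.5 and 51.3 against 45.3 and 45.7 FPKM. Its log2 change was -0.08 by counts (adjusted p = 0.0608, edgeR) and -0.10 with the effective length offset (adjusted p = 0.0319), and without control replicate 1 it was called by counts (adjusted p = 0.0486). For SRSF2 and SRSF4 the FPKM of the groups did not overlap, though neither passed the count test. SRSF10 (adjusted p = 0.659), SRSF11 (adjusted p = 0.319) and SRSF12 (adjusted p = 0.535) did not pass in edgeR. SRSF10 is known as a general repressor of splicing when it loses its phosphates, and its levels were 93.9, 97.7, 93.1 and 91.6 FPKM. As a family, SRSF had no member called higher, 6 lower and 5 not passed, with a median log2 change of -0.08, and -0.17 without knockdown replicate 2. With the effective length offset 7 were lower and 1 higher, and with the length trend removed 5 were lower and 2 higher (median 0.01).

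TRA2A and TRA2B are SR-like activators that bind GAA-rich exonic enhancers. TRA2B, on chromosome 13 (123760008 to 123780919, minus strand), was at 178 and 182 FPKM in the controls and 163 and 167 FPKM in the knockdown. Both knockdown libraries were lower, and the log2 change was -0.22 by counts (SE 0.0298, adjusted p = 1.24e-10, edgeR). It was -0.08 with the effective length offset (adjusted p = 0.0341) and -0.05 with the length trend removed (adjusted p = 0.205). TRA2A was at 49.7 and 45.1 against 41.5 and 46.4 FPKM, overlapping groups, with a log2 change of -0.09 (adjusted p = 0.0694, edgeR), and was called without control replicate 2 (-0.15, adjusted p = 0.013).

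Of the 20 HNRNP genes, 16 fell, 2 rose and 2 did not pass, with a median log2 change of -0.19, the lowest median of the 7 families. Together they held 0.906% and 0.909% of all counts in the controls and 0.807% and 0.808% in the knockdown. HNRNPA0, an intronless gene whose product binds AU-rich elements of mRNAs, changed most. It was at 69.4 and 67.9 FPKM in the controls and 48.8 and 48.0 FPKM in the knockdown, with no overlap. The log2 change was -0.46 (SE 0.0322, adjusted p = 1.82e-28, edgeR), where tested genes of 3000 to 4000 bases had a median of 0.03. The gene lies on chromosome 2 (139779865 to 139783016, minus strand), inside the annotated span of KLHL3 on the same strand, and has 1 annotated transcript of 3152 bases. HNRNPM, a repressor and activator of exons with UG-rich binding sites, was at 268 and 259 FPKM against 211 and 213 FPKM. The groups were apart, with a log2 change of -0.29 (SE 0.022, adjusted p = 2.87e-25, edgeR). HNRNPH2, an X-linked member of the group that binds runs of guanine, was at 41.6 and 40.6 against 32.6 and 32.3 FPKM. It fell by 0.28 on the log2 scale (SE 0.0442, adjusted p = 1.43e-08, edgeR).

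HNRNPA1, which binds UAG-type silencers and shuttles with mRNA to the cytoplasm, was the most abundant of all 48 genes. It was at 576 FPKM in both controls and at 507 and 500.1 FPKM in the knockdown. The knockdown libraries were lower, with a log2 change of -0.17 (SE 0.0195, adjusted p = 1.64e-13, edgeR) and -0.01 with the length trend removed (adjusted p = 0.721). Its close relative HNRNPA2B1 was at 502 and 509 against 447 and 452 FPKM and fell by 0.22 on the log2 scale (SE 0.0188, adjusted p = 3.89e-22, edgeR). HNRNPA3, the third of these A/B relatives, fell by 0.28 on the log2 scale (SE 0.0218, adjusted p = 4.64e-25, edgeR). Both kept their calls with the length trend removed, at -0.16 and -0.32, and with the effective length offset, at -0.12 and -0.18.

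HNRNPK, a KH domain protein that binds poly(C), was at 449 and 441 against 372 and 378 FPKM. HNRNPF, which binds runs of guanine, was at 334 and 339 against 281 and 286 FPKM. Each had groups that did not overlap and a log2 change of -0.22, with adjusted p = 2.86e-21 for HNRNPK and adjusted p = 5.7e-19 for HNRNPF (edgeR). HNRNPUL2 (-0.26) and HNRNPR (-0.21) fell to a like extent. HNRNPU, a nuclear scaffold protein that also shapes chromatin, fell by 0.10 on the log2 scale (adjusted p = 1.57e-05, edgeR). Its 4 transcripts are all annotated as noncoding in this pig annotation. The smallest falls were those of HNRNPAB (-0.09), HNRNPDL (-0.07) and HNRNPH1 (-0.05). The call of HNRNPDL was lost without control replicate 2 (adjusted p = 0.368) or knockdown replicate 2 (adjusted p = 0.0766), and with DESeq2 (adjusted p = 0.0651). That of HNRNPH1 was lost without control replicate 1 (adjusted p = 0.06), control replicate 2 (adjusted p = 0.125) or knockdown replicate 2 (adjusted p = 0.128), and with DESeq2 (adjusted p = 0.107). With the length trend removed, HNRNPAB turned to 0.08 (adjusted p = 0.0041), and HNRNPH1 (0.01, adjusted p = 0.611), HNRNPD (-0.01, adjusted p = 0.824) and HNRNPH3 (-0.04, adjusted p = 0.37) did not pass. The family then had 11 members lower and 3 higher, with a median of -0.12.

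HNRNPL, which binds CA repeats, went the other way. It was at 155 FPKM in both controls and at 180 and 173 FPKM in the knockdown. Both knockdown libraries were higher, with a log2 change of 0.17 by counts (SE 0.025, adjusted p = 9.39e-10, edgeR), 0.24 with the effective length offset and 0.24 with the length trend removed. HNRNPUL1, a relative of HNRNPU, was at 73.7 and 71.7 against 77.6 and 77.4 FPKM. It rose by 0.19 on the log2 scale (SE 0.0276, adjusted p = 7.67e-10, edgeR), but limma on log2(FPKM + 1) gave adjusted p = 0.0565. HNRNPLL, a paralog of HNRNPL known from lymphocyte splicing, did not pass, at 26.67, 24.82, 23.95 and 23.47 FPKM. HNRNPC, which binds uridine tracts, was at 192 and 190 against 165 and 163 FPKM. The FPKM groups did not overlap, but its log2 change by counts was -0.02 (adjusted p = 0.403, edgeR) and with the effective length offset -0.17 (adjusted p = 8.88e-07). Its weighted length was 2474 bases in the controls and 2690 bases in the knockdown.

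**Figure D2:**
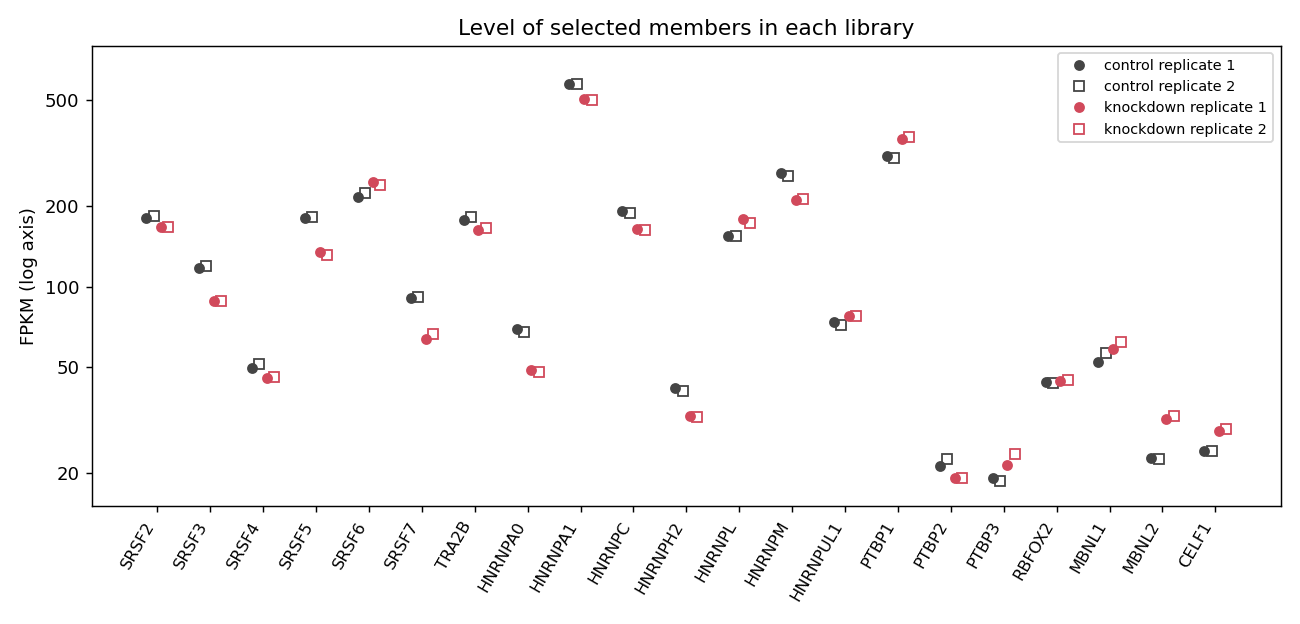
FPKM (log axis) of 21 members in each of the 4 libraries, with controls in grey, knockdown in red, replicate 1 as filled circles and replicate 2 as open squares. HNRNPA1 is highest at 576 FPKM in the controls, and the knockdown libraries lie above the controls for MBNL2, PTBP1, PTBP3, HNRNPL and CELF1 among others.

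The PTBP proteins bind pyrimidine-rich tracts, mostly as repressors. PTBP1, the form of most tissues, was the most abundant of the 3 at 310.2 and 305 FPKM in the controls and 358 and 365 FPKM in the knockdown. Both knockdown libraries were higher. The log2 change was 0.09 by counts (SE 0.0194, adjusted p = 3.64e-05, edgeR) and 0.29 with the effective length offset (adjusted p = 7.91e-13). The weighted length of PTBP1 was 2903 bases in the controls and 2567 bases in the knockdown. PTBP3 was at 19.1 and 18.6 against 21.4 and 23.5 FPKM and rose by 0.27 on the log2 scale (SE 0.0357, adjusted p = 2.7e-11, edgeR). Its change was 0.13 with the length trend removed, and the call was lost with limma on log2(FPKM + 1) without a filter (adjusted p = 0.065). PTBP2, the paralog known from neurons and from male germ cells, was at 21.3 and 22.5 against 19.1 and 19.2 FPKM. It fell by 0.13 on the log2 scale (SE 0.0506, adjusted p = 0.0239, edgeR). That call was lost with DESeq2 (adjusted p = 0.192) and without control replicate 2 (adjusted p = 0.274), knockdown replicate 1 (adjusted p = 0.0949) or knockdown replicate 2 (adjusted p = 0.076).

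RBFOX proteins bind the motif UGCAUG. RBFOX2, the form of many tissues, was at 43.8, 43.4, 44.3 and 44.5 FPKM and did not pass, with a log2 change of 0.04 (adjusted p = 0.31, edgeR). RBFOX1 and RBFOX3 stayed under 1 FPKM in every library, at 0.08 to 0.21 and at 0.41 to 0.59 FPKM.

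MBNL proteins bind YGCY motifs and are known for promoting splicing patterns of differentiated cells. MBNL2, on chromosome 11 (66481923 to 66641653, plus strand), was at 22.7 and 22.5 FPKM in the controls and 32.0 and 32.6 FPKM in the knockdown. The groups lay far apart for a member of this set, and the log2 change was 0.55 (SE 0.0372, adjusted p = 1.9e-30, edgeR), 0.56 with the effective length offset and 0.49 with the length trend removed. MBNL3, on the X chromosome, was at 13.8 and 13.4 against 17.7 and 18.9 FPKM and rose by 0.32 on the log2 scale (SE 0.0366, adjusted p = 7.78e-14, edgeR), by 0.48 with the effective length offset and by 0.16 with the length trend removed. MBNL1, the most abundant of the 3, was at 52.3 and 56.2 against 58.4 and 61.7 FPKM. It rose by 0.20 on the log2 scale (SE 0.027, adjusted p = 2.94e-11, edgeR), but limma on log2(FPKM + 1) gave adjusted p = 0.0677, and the change was 0.11 with the length trend removed. The family median was 0.32, and 0.16 with the length trend removed.

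CELF proteins bind GU-rich elements and often oppose MBNL proteins on the same exons. CELF1 was at 24.1 FPKM in both controls and at 28.7 and 29.1 FPKM in the knockdown. Both knockdown libraries were higher, with a log2 change of 0.19 (SE 0.0363, adjusted p = 1.93e-06, edgeR), 0.31 with the effective length offset and 0.11 with the length trend removed. CELF2 was at 10.7 and 11.2 against 12.1 and 11.9 FPKM, with a log2 change of 0.18 (SE 0.0475, adjusted p = 0.000776, edgeR) and 0.05 with the length trend removed (adjusted p = 0.389). Its call was also lost with limma on log2(FPKM + 1) (adjusted p = 0.0818). CELF3, CELF4, CELF5 and CELF6, known mainly from the nervous system, were under 1 FPKM in every library. CELF3 and CELF4 were tested and did not pass (adjusted p = 0.832 and 0.493, edgeR). The median of the 4 tested CELF genes was 0.19, and 0.07 without control replicate 1.

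Above 500 bases, the median fold change of all genes rose with transcript length, and the families differ in length. The 235 tested genes under 500 bases, none of them a member, did not follow this order, with a median log2 change of 0.70. Tested genes of 1000 to 1500 bases had a median log2 change of -0.23, those of 2000 to 3000 bases -0.04, and those of 6000 to 8000 bases 0.14. The median weighted length was 2055 bases in SRSF, 2392 in HNRNP, 5187 in MBNL and 5465 in the tested CELF genes, against 3077 bases over all genes tested. Removing a smooth trend of length left 17 members lower, 11 higher and 17 not passed, with a median of -0.03. Over all genes 21.6% were then lower and 19.3% higher, with a median of -0.01. The call was the same as by counts for 34 of 45 members. The effective length offset uses each gene's length less the fragment length in each library. With this offset 26 were lower and 10 higher (23.9% and 22.5% over all genes), and 41 of 45 calls were the same. It also carries the difference in fragment length between the groups. SRSF9, at 707 bases in every library, went from -0.29 by counts to -0.46 with the offset. What made the fold change move with length was not tested.

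**Figure D3:**
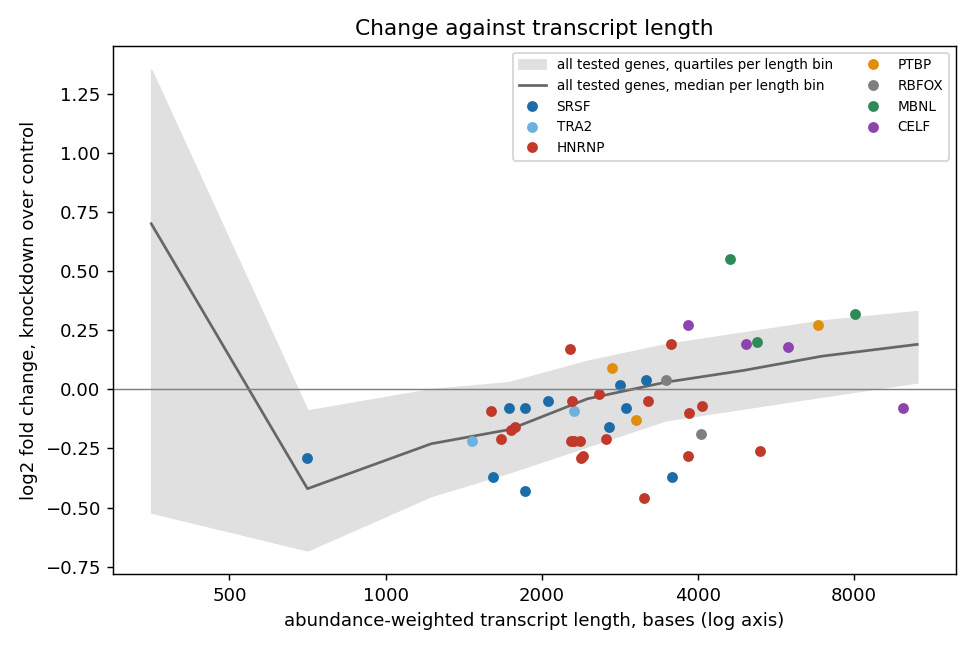
Log2 fold change, knockdown over control, against abundance-weighted transcript length in bases (log axis) for the 45 tested members, coloured by family, with the median (line) and quartiles (grey band) of all tested genes per length bin. The median of all genes is 0.70 under 500 bases and rises from -0.42 at 500 to 1000 bases to 0.19 above 8000 bases. SRSF7, SRSF3 and HNRNPA0 are among the members below the band, and MBNL2 is among those above it.

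The length measure also reports on which transcripts of a gene were used, because RSEM weights the lengths of a gene's transcripts by their estimated abundance. For genes with 1 annotated transcript the deposited length equalled the exonic length of that transcript in 12264 of 12267 cases (within 1 base). Of 42 tested members with several transcripts, the weighted length was shorter in the knockdown by at least 5% with no overlap in 8 and longer in 1. Over 11303 such genes, 6.88% were shorter, 5.37% longer and 12.3% either. The measure and its threshold were chosen after the data were seen. The shorter ones were SRSF6 (-15.7%), PTBP1 (-11.6%), TRA2B (-9.4%), MBNL3 (-9.0%), SRSF12 (-7.2%), CELF1 (-6.7%), HNRNPA2B1 (-6.5%) and HNRNPA3 (-5.6%). The longer one was HNRNPC (8.7%). SRSF12 held only 235 to 265 counts in a library. Its length was 1773 and 1820 bases in the controls and 1576 and 1758 bases in the knockdown, so knockdown replicate 2 lay close to the controls. The transcript estimates were made on fragments of different length in the groups, and the part of that difference in these shifts was not tested.

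**Figure D4:**
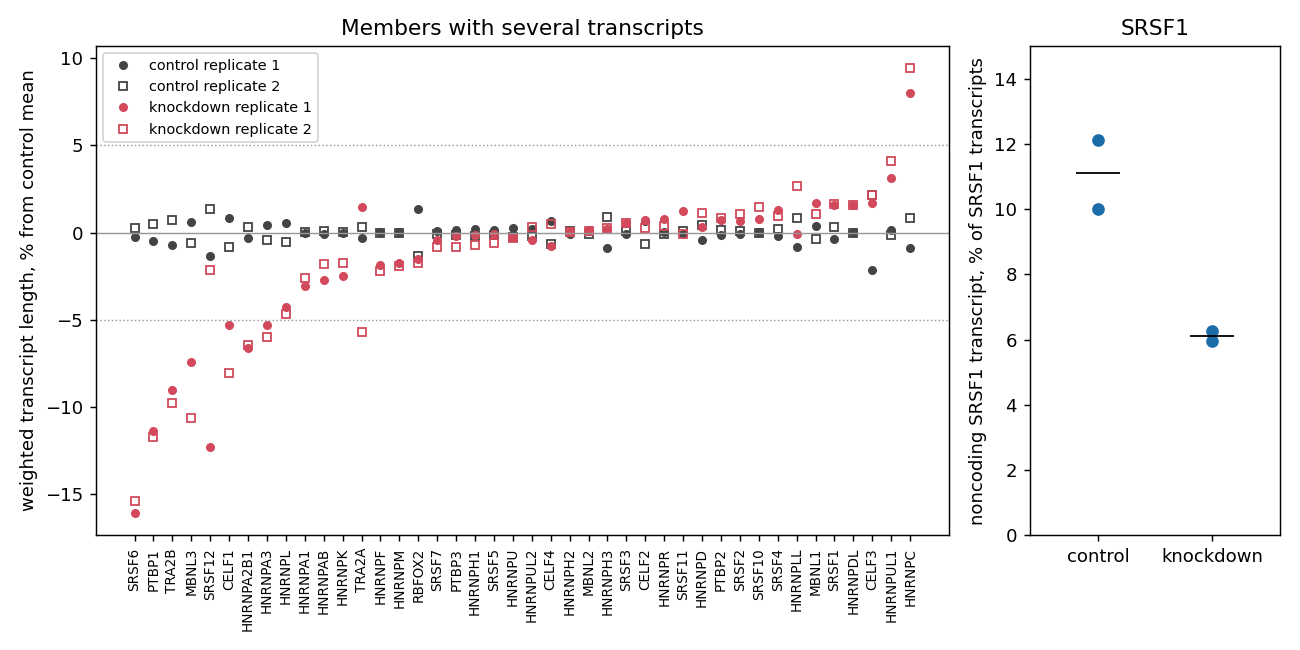
Left, weighted transcript length in each library as percent difference from the control mean for the 42 tested members with several transcripts, with dotted lines at 5% either way. Right, the estimated share of the noncoding SRSF1 transcript in each library with the group mean as a bar, at 11.1% in the controls and 6.1% in the knockdown.

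For SRSF3 the annotation separates coding from noncoding transcripts by an exon of 458 bases, chr7:32293963-32294420 on the plus strand of Sscrofa 11.1. The exon is shown because it holds an early stop codon of the kind by which SR genes limit their own mRNA. It is given as its first 120 and its last 60 bases, each with 20 bases of the neighbouring intron, at chr7:32293943-32294082 and chr7:32294361-32294440 (RefSeq sequence, 5′ to 3′). Capitals mark the AG before the exon, the in-frame TGA and the GT after the exon.
SRSF3 cassette exon, start: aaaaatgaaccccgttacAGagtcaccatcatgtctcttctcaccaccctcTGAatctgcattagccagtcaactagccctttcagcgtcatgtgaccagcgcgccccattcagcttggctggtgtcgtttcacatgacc
SRSF3 cassette exon, end: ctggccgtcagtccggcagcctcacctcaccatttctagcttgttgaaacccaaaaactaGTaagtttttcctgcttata
The TGA begins at base 32 of the exon and ends the reading frame after 124 codons, where the annotated protein has 164 residues. The lengths bound the share of this noncoding transcript among SRSF3 transcripts at 14.5 to 22.3% and 15.5 to 23.2% in the controls and at 19.3 to 26.6% and 19.4 to 26.7% in the knockdown. The bounds of the groups overlapped, so a change of the share was not resolved.

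For SRSF1, with 2 annotated transcripts, the share can be solved from the lengths. The noncoding form lacks 918 bases, chr12:34278891-34279808 on the minus strand, an intron within the 3′ UTR of the coding form that begins 489 bases after its stop codon. Its estimated share was 12.1% and 10% in the controls and 6.25% and 5.95% in the knockdown, or 11.1 ± 1.49% and 6.1 ± 0.211% (mean ± SD, n = 2). Both knockdown libraries were lower, a difference of -4.96 points, just short of the 5 points used as a threshold. Among 1307 genes with 2 transcripts at least 100 bases apart in length, the groups did not overlap in 40.9%, and 27.4% passed that threshold with no overlap. Depth of single transcripts is unknown here, so no counting interval is given.

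The other lists of the splicing pathway are read against the 22.7% of all tested genes called higher and 23.8% called lower. Of 11 tested kinases and transport factors of SR proteins, 2 rose, 2 fell and 7 did not pass (median 0.00). CLK1, a nuclear kinase of SR proteins, fell by 0.37 on the log2 scale, DYRK1A, a kinase of nuclear speckle proteins, rose by 0.34, and TNPO1, an import receptor of hnRNPs, rose by 0.16. Of 18 tested SR-related coactivators, 7 rose, 4 fell and 7 did not pass (median -0.01), and 6 were higher and 6 lower with the length trend removed. SRRM1 and SRRM2, scaffold proteins of nuclear speckles, rose by 0.64 and 0.48 and LUC7L, a component linked to the U1 particle, fell by 0.58. Of 48 other splicing-regulatory RNA-binding proteins, 15 rose, 11 fell and 22 did not pass (median 0.02). There the cold-inducible CIRBP (-0.71) and the RNA-binding protein TAF15 (-0.60) fell. Of 10 nonsense-mediated decay factors, 2 rose, 1 fell and 7 did not pass (median -0.01), and 1 was higher and 2 lower with the length trend removed. The helicase UPF1 fell by 0.09 and the kinase SMG1 rose by 0.16. The call of UPF1 was lost with the effective length offset (-0.07, adjusted p = 0.0876). With the length trend removed UPF1 was at -0.20, SMG1 was at -0.11 (adjusted p = 0.000269) and TNPO1 at -0.01 (adjusted p = 0.827).

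Over the fit by counts and 14 alternatives that leave out TPM, 14 of the 24 falls and 5 of the 9 rises were called the same way in each. The falls were SRSF1, SRSF3, SRSF5, SRSF7, HNRNPA0, HNRNPA2B1, HNRNPA3, HNRNPF, HNRNPH2, HNRNPK, HNRNPM, HNRNPR, HNRNPU and HNRNPUL2, and the rises HNRNPL, PTBP1, MBNL2, MBNL3 and CELF1. Among those alternatives, 12.9% to 29.7% of all genes tested were called lower and 6.09% to 23.3% higher in any single fit. The share of all genes called the same way in every fit was not computed, so these member counts have no matching background. On log2(TPM + 1) the same 5 rises were called, and of the 14 falls 6 were, namely SRSF3, SRSF5, SRSF7, HNRNPA0, HNRNPH2 and HNRNPM.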

How the data were processed

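RNA-seq of 2 control and 2 ZBTB16 knockdown libraries was used, grouped by their titles. Per the labels' protocols, SOAPnuke 2.1.0 filtered the reads, HISAT2 2.2.1 aligned them to Sscrofa 11.1 and bowtie2 2.3.5 mapped them to transcripts. The authors deposited expected counts, FPKM and TPM per gene, made with RSEM 1.3.3, and each gene's transcript length and effective length. RSEM divides reads among transcripts, so members with many isoforms carry the error of that estimate. The sources used here do not say whether counting used strand, and 16 of the 48 members overlap a gene on the opposite strand and could share its reads, among them SRSF1, SRSF2, SRSF3, HNRNPA2B1, HNRNPD, HNRNPH3, HNRNPU and PTBP1.

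Expected counts were rounded and tested on the whole table with edgeR 4.0.16 in R 4.3.3 (TMM, filterByExpr with minimum count 10 and total 15, two-sided quasi-likelihood test, common biological coefficient of variation 0.0129). P-values were Benjamini-Hochberg adjusted over 15763 genes and called under 0.05. The procedure was tested on simulated data. Coordinates and the sequence come from RefSeq of the same build, matched by symbol and transcript accession. Values in every library are given for members with the largest called changes (up to 3 each way in SRSF and HNRNP, 1 in smaller families), the most abundant of each family and those whose call differs with the effective length offset. Of each other pathway list, up to 3 genes are named, by smallest p among those averaging 1 FPKM or more; some that the rule selects are not reported here. Alternatives were DESeq2 1.42.0, limma 3.58.1 on log2(FPKM + 1) and log2(FPKM + 0.1) at a minimum of 1 FPKM in 2 libraries, other scalings, no filters, effective length offsets, a length trend (mgcv 1.9.3), the replicate block and leaving out each library. Members and lists were chosen with earlier results of these data known. The TPM alternative, the weighted lengths and transcript shares were added after the data were seen.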

Additional observations from a re-analysis of the deposited data

How the results depend on the processing

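Outside log2(TPM + 1), where 7 were lower and 19 higher, the alternatives gave 17 to 27 lower members and 6 to 11 higher, against 24 and 9; the 6 came from unfiltered log2(FPKM + 1). Leaving out each library gave 21 to 24 lower and 9 higher. Whether the replicate numbers pair the samples could not be told. The correlation of the replicate differences between the groups was 0.000368, but replicates differed little more than sampling predicts. With the numbers as a replicate block 25 members were lower and 9 higher (24.1% and 23.3% over all genes), since TRA2A was then called (adjusted p = 0.043, edgeR). The block changed no other member's call. The cause of the changes listed here was not tested.

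The median of all tested members was -0.11 with library totals, -0.10 without the count filter, -0.14 on log2(FPKM + 1) and log2(FPKM + 0.1), -0.13 on unfiltered log2(FPKM + 1), -0.08 with effective lengths, -0.03 with the length trend removed and 0.09 on TPM. For SRSF it was -0.15 on all 3 FPKM settings, 0.01 with the length trend removed and 0.08 on TPM. For TRA2 it was -0.12 on the FPKM settings, -0.07 with effective lengths, -0.04 with the trend removed and 0.10 on TPM. For HNRNP it was -0.18 with DESeq2 size factors, -0.20 with library totals, -0.22 on the FPKM settings, -0.17 with effective lengths, -0.12 with the trend removed and 0.00042 on TPM. For PTBP it was 0.07 with library totals, 0.23 on the FPKM settings, 0.29 with effective lengths and 0.46 on TPM. For RBFOX it was 0.03 on both filtered FPKM settings and 0.25 on TPM. For MBNL it was 0.40, 0.43 and 0.40 on the FPKM settings, 0.48 with effective lengths, 0.16 with the trend removed and 0.63 on TPM. For CELF it was 0.10 on unfiltered FPKM, 0.08 with the trend removed and 0.41 on TPM. Without each library in turn, the median ranged from -0.11 to -0.09 over all members, from -0.17 to -0.09 in SRSF, from -0.18 to 0.02 in RBFOX, from 0.29 to 0.34 in MBNL and from 0.07 to 0.20 in CELF. The low value of CELF came without control replicate 1 and that of SRSF without knockdown replicate 2.

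Single members changed sign as follows. With library totals SRSF10 was at -0.0009. On the FPKM settings SRSF10 was at -0.05, SRSF11 at -0.02 and SRSF6 at 0.14. With effective lengths SRSF10 was at -0.0017, SRSF12 at 0.03 and SRSF6 at 0.19. With the length trend removed SRSF12 was at 0.08, SRSF2 at 0.06, SRSF6 at 0.07, SRSF9 at 0.07, HNRNPAB at 0.08 and HNRNPH1 at 0.01. On TPM these were SRSF12 (0.19), SRSF2 (0.10), SRSF4 (0.08), SRSF6 (0.37), TRA2A (0.11), TRA2B (0.09), HNRNPA1 (0.03), HNRNPA2B1 (0.05), HNRNPAB (0.09), HNRNPC (0.0089), HNRNPDL (0.09), HNRNPH1 (0.12), HNRNPLL (0.10), HNRNPU (0.09) and PTBP2 (0.03). Leaving out 1 library gave -0.01 to 0.04 for SRSF10, -0.19 to 0.03 for SRSF12, -0.19 to 0.03 for CELF3 and -0.01 to 0.60 for CELF4. With DESeq2 the falls of SRSF6, HNRNPDL, HNRNPH1 and PTBP2 did not pass (adjusted p = 0.0597, 0.0651, 0.107 and 0.192). Depth limits RBFOX1, RBFOX3 and CELF3 to CELF6, all under 1 FPKM, for which a change was not detectable or not tested.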

Other observations

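SYNCRIP, an RNA-binding protein also known as hnRNP Q whose gene name falls outside the rule used for the members, was at 112 and 115 FPKM in the controls and 111 and 115 FPKM in the knockdown. Its log2 change was 0.02 (adjusted p = 0.489, edgeR). 1 locus annotated as an HNRNPA1-like sequence held 0, 0, 0 and 1 counts in the 4 libraries and was not tested.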
